A study of Arabidopsis thaliana with 8 samples.

Results

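The genes described here form the distal stretch of the long arm of Arabidopsis thaliana chromosome 5, from AT5G49690 to AT5G67640 in the order of their locus names. Every locus in that interval was taken, which gave 1841 of the 25665 loci on the array. The interval was chosen by the RNA levels of 1 strain, ExTQ019, in which its genes were low, so the differences of ExTQ019 are given as a description without a test. Of the 1841 loci, 1839 had a usable probe, 1658 were well above background on at least 1 array and 181 were dim on all arrays. A further limit, detection in 6 or more of the 7 other strains, kept 1481 genes, called measured here, and left 177 that were detected in fewer strains. Because that limit rests on the other strains only, a gene could be measured and still be dim in ExTQ019, as 17 were.

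Ex-TAQing rearranges a plant genome by switching on a restriction enzyme inside the living plant. The 8 strains (ExTQ019, and for comparison ExTQ002, ExTQ003, ExTQ005, ExTQ013, ExTQ015, ExTQ016 and ExTQ018) were diploid progeny of parents that carried the gene for the restriction enzyme MseI and had been heated for 3 h at 33 °C. All were grown for 4 weeks on MS medium in long days and sampled as leaves, with 1 array for each strain. All 8 carry this history, no strain without it was used here as a control, and the labels do not say if plants were pooled.

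The amount of a gene's RNA often follows the number of gene copies in the cell, so that losing 1 chromosome part from a pair lowers many of its genes to about the level of a single copy. Some genes depart from this rule because their regulators lie elsewhere in the genome and respond to the state of the plant. In Arabidopsis the distal part of chromosome 5 carries genes of light harvesting, the clock, stress hormones, defence, the cell wall and chromosome maintenance. In RNA from whole tissue, fewer cells of a type and less RNA per cell cannot be told apart.

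Each level below is a log2 intensity relative to the 75th percentile of its array, and each difference is the level in ExTQ019 minus the median of the 7 others, centred on the median of that difference over all measured genes. A difference of −1 is therefore a halving. Between 61.3% and 67.7% of probes were well above background on the 8 arrays. The 6 leaf markers were above background on all arrays, with summed levels from 8.29 to 8.82 in the others and 8.16 in ExTQ019. PSBO1, 1 of these markers, lies in the interval itself, at 5.94 in ExTQ019 against 6.59 to 7.08 in the others. The lower sum of ExTQ019 therefore includes the lowering described here and is no separate measure of leaf content. All 5 flower markers were also detected in 7 of the 8 arrays, with summed levels from −0.64 in ExTQ002 to 3.96 in ExTQ018 and 2.48 in ExTQ019. The part of floral RNA in the results was not tested.

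In ExTQ019 the 1481 measured genes had a median difference of −0.87, with quartiles of −1.29 and −0.48. In the other strains the same genes had medians between 0.01 in ExTQ002 and 0.05 in ExTQ003. No other strain came near the level of ExTQ019. The arrays lay on 2 slides of 4, each scanned apart, and against the other strains of its own slide only ExTQ019 had a median of −0.86. The interquartile range was 0.81 in ExTQ019, against 0.30 in ExTQ015 to 0.59 in ExTQ002, so the genes of ExTQ019 were both lower and more widely spread than in any other strain.

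**Figure D1:**
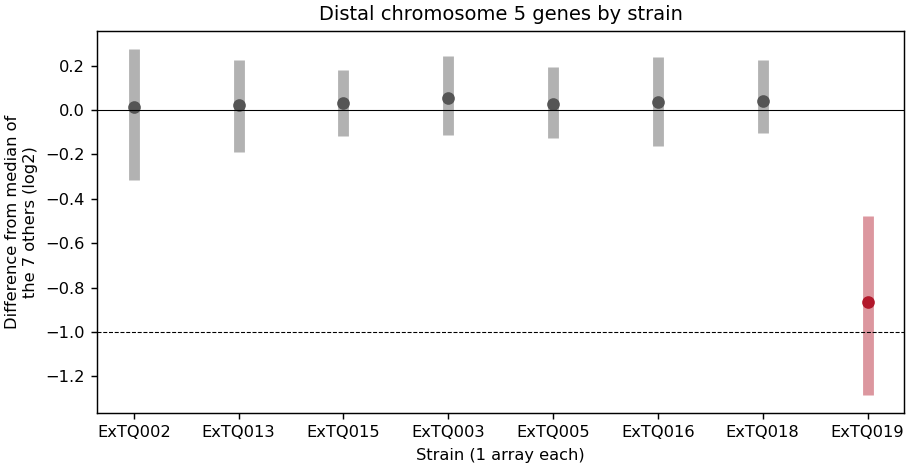
Differences of the measured distal chromosome 5 genes in each of the 8 strains. Points are medians and bars run from the first to the third quartile over genes, in log2 units against the median of the 7 others; the dashed line marks a halving. The median of ExTQ019 lies at −0.87 and those of the others between 0.01 and 0.05.

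Of the 1481 genes, 829 (56.0%) lay near a halving, with differences from −1.5 to −0.5. A closer band, within 0.25 of −1, held 484 genes (32.7%). At or above the level of the others were 176 genes (11.9%), of which 64 had a difference of 1 or more. At a difference of −2 or less were 133 genes (8.98%), among them 11 of the 17 genes that were not above background in ExTQ019 and have only a bound there. Between these classes lay 207 genes from −0.5 to 0 and 136 from −2 to −1.5.

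The spread around the halving was about as wide as the spread of genes at their usual level. Over 8124 measured genes of chromosomes 1 and 4, where no stretch was lowered in ExTQ019, the median difference was 0.07 and the interquartile range 0.82, against 0.81 on distal chromosome 5. The whole distribution lay lower by nearly the same amount: distal chromosome 5 minus chromosomes 1 and 4 was −0.98 at the 5th percentile, −0.94 at the median and −1.03 at the 95th percentile. On chromosomes 1 and 4, 11.3% of genes lay at 1 or more and 2.92% at −2 or less, against 4.32% and 8.98% here.

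**Figure D2:**
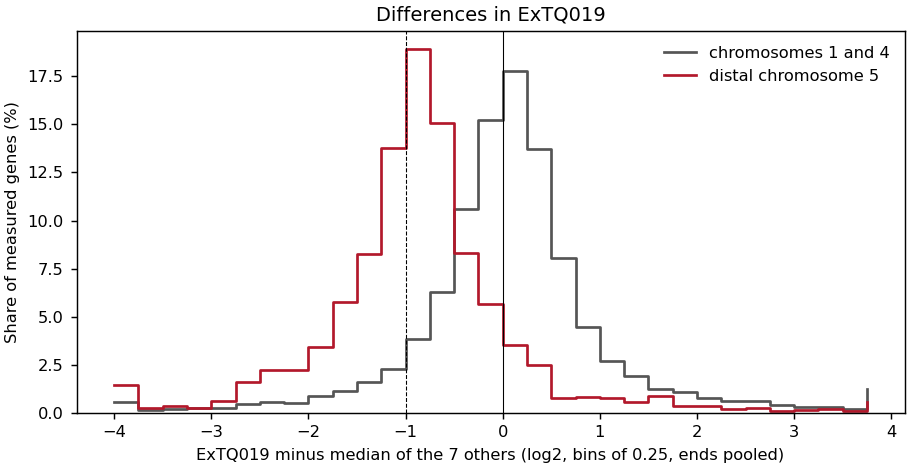
Differences in ExTQ019 for 1481 distal chromosome 5 genes and 8124 genes of chromosomes 1 and 4, as the share of genes in bins of 0.25 log2 units, with values beyond the axis pooled in the end bins. Both curves have a similar width, and the distal chromosome 5 curve sits to the left, with its median at −0.87 against 0.07.

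Genes that hardly vary between plants gave a narrower picture. Among genes above background on all arrays whose SD over the 7 others was at most 0.15, the 402 of distal chromosome 5 had a median difference of −0.85 and an interquartile range of 0.47. Of these, 78.9% lay near a halving, 9 lay at or above the others and 3 at −2 or less. The 2156 steady genes of chromosomes 1 and 4 had a median of 0.10 and an interquartile range of 0.49. At the median the distal genes were again displaced by −0.95.

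ExTQ019 lay below all 7 others for 1112 of the 1481 genes (75.1%), where 29.3% of all measured genes lay so. It lay above all 7 others for 69 genes (4.66%, against 29% of all measured genes) and within their range for 300 (20.3%). By limma with Benjamini-Hochberg adjustment, 464 of the 1658 tested members were called lower in ExTQ019, 28.0% of them, against 6.3% of all genes tested. Another 17 were called higher, 1.03% of them, against 4.4% of all genes tested. These counts come from the contrast that set the interval and are given for size only; without ExTQ002 the number called higher was 30, 1.81% of the members against 6.15% of all genes tested.

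Along the interval the lowering was present throughout. In 30 blocks of 50 successive measured genes, the last of which shares genes with the one before it, block medians ran from −1.25 to −0.66. The lowest block ran from AT5G65687 to AT5G66160 and the highest from AT5G52370 to AT5G53010. In front of the first locus the medians of 20, 50 and 100 measured genes were 0.01, −0.03 and 0.03, and from it onward −0.84, −0.82 and −0.89. The nearest genes did not show so clean a border. Of the last 5 measured loci before it, 4 were already low, AT5G49640 at −0.70, XK-2 at −1.03, XIP1 at −0.73 and AT5G49665 at −0.45, while AT5G49680 stood at 2.47. The first 5 from the border were AT5G49690 at −0.97, AT5G49700 at −1.62, AT5G49710 at −0.76, GH9A1 at −1.76 and FRO6 at −1.35.

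**Figure D3:**
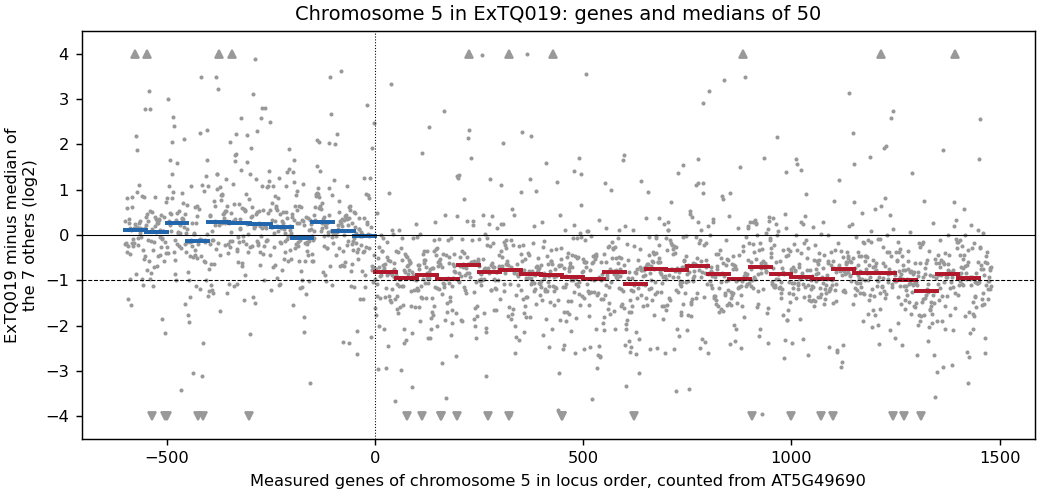
Differences in ExTQ019 for measured genes of chromosome 5 in locus order, counted from AT5G49690, with 600 genes before it. Grey points are genes (triangles lie beyond 4 log2 units), coloured bars are medians of 50 genes, blue before the first locus and red from it; the red bars lie between −1.25 and −0.66.

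The spread was widest among the dimmest genes. When the measured genes were ranked by their mean signal in the other strains and split into 4 groups of equal size, the median differences were −0.77, −0.89, −0.87 and −0.89 from the dimmest to the brightest. The interquartile range was 1.42 in the dimmest group and 0.69, 0.64 and 0.68 in the others. The median SD over the 7 other strains also fell with brightness, from 0.52 to 0.25, 0.18 and 0.17. The parts of brightness and of variation between strains in the spread were not tested. Of the 64 genes at 1 or more, 43 lay in the dimmest group and 0 in the brightest. For 24 genes with several bright probes, the probes of a gene differed by a median of 0.24 and by at most 1.98, and all probes lay below 0 for 20 of them.

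The 6 members with the highest mean signal were close to a halving except for 2. PSBO1, which encodes an oxygen-evolving complex subunit of photosystem II, stood at 5.94 in ExTQ019 and at 6.59, 6.90 and 7.08 (lowest, median and highest) in the others, a difference of −0.93. THI1, the thiazole synthase of vitamin B1 synthesis, stood at 5.70 against 6.62, 6.78 and 6.86 and differed by −1.05. LHCB3, a light-harvesting protein of photosystem II, stood at 5.56 against 5.98, 6.46 and 6.52, and PSAN, a photosystem I subunit, at 4.88 against 5.65, 5.93 and 6.28. For these 4 genes ExTQ019 lay below every other strain. AT5G60390 was less reduced, at −0.52. ALP, an aleurain-like protease, stood at 5.80 in ExTQ019 against 5.72, 5.94 and 6.31, inside the range of the others.

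Among photosynthesis genes, PSBO1 and FNR1 have a second gene on another chromosome. The partner of PSBO1, PSBO2 on chromosome 3, stood at 5.96 in ExTQ019 against 5.43, 6.01 and 6.20, within the range of the others and with a difference of −0.01. FNR1, a ferredoxin-NADP reductase that passes photosynthetic electrons to NADP, differed by −0.43, and its partner FNR2 on chromosome 1, where no stretch was lowered, by −0.47. The 4 measured photosynthesis genes on distal chromosome 5 had a median of −0.90, against −0.18 for 27 listed genes outside the lowered stretches of ExTQ019, of which 0 were called in either direction by limma.

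The 12 members with the lowest differences were far below a halving. AACT1, an acyltransferase whose name comes from anthocyanin acylation, stood at −7.24 in ExTQ019 and at −2.51, −0.02 and 1.54 in the others, a difference of −7.19. BT1, a BTB and TAZ domain scaffold protein, stood at 0.03 against 3.85, 5.11 and 5.75, a difference of −5.04. In both genes ExTQ019 lay well apart from the range of the others. HB52, a homeodomain-leucine zipper transcription factor, differed by −5.87 (−6.23 against −2.13, −0.33 and 0.92). AT5G57760 differed by −6.87 and AT5G62280 by −5.16. AT5G51780 and AT5G51790, successive by locus name, differed by −5.68 and −5.44. AT5G55690 and its neighbour by name AT5G55680 were not above background in ExTQ019 and were at least 67.8-fold and 5.49-fold lower, bounds set by the dimmest probe well above background on each array. AT5G55680 was not above background in ExTQ002 either.

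Some of these low values were shared with another strain. AGP22, a small arabinogalactan protein of the cell surface, differed by −6.42 in ExTQ019, at −6.89, and stood at −5.14 in ExTQ002, where the remaining 6 strains ran from −1.89 to 0.02. ACS5, an enzyme of ethylene synthesis, was not above background in ExTQ019, at least 6.58-fold lower than the mean of the others, and was not above background in ExTQ002 either, where it stood at −7.73 against −5.71 to −4.27 in the remaining 6. MAF5, a MADS-box gene of the floral repressor group, stood at −7.60 in ExTQ019 and at −7.75 in ExTQ005, so the strains overlapped. In ExTQ005 MAF5 was not above background.

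At the other end, the 12 highest differences ran from 3.32 to 5.09. UF3GT, a glycosyltransferase of anthocyanins, had the largest difference, 5.09, with levels of −7.93, −6.56 and −4.30 in the others. The lowest of these levels was in ExTQ005, where UF3GT was not above background. RLK1, a receptor-like kinase, stood at 1.98 against −4.82, −3.01 and 0.29. WRKY51, a transcription factor of the salicylic acid response, stood at −0.87 against −6.60, −5.56 and −2.78. In these 3 genes ExTQ019 was above every other strain. ANK, an ankyrin-repeat protein also called BDA1 and known from immunity, differed by 3.99, AT5G60280, an L-type lectin receptor kinase, by 3.42, and COBL5, of the COBRA-like family, by 3.49. WR3, better known as NRT3.1, a partner protein of nitrate transporters, stood at 1.49 against −2.62, −1.80 and 0.36. DAR3 differed by 4.14 but overlapped, since ExTQ002 stood at −1.43 and ExTQ019 at −1.82. The rest were AT5G52760 at 4.22, AT5G55460 at 4.20, AT5G53110 at 3.97 and AT5G56370 at 3.56.

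**Figure D4:**
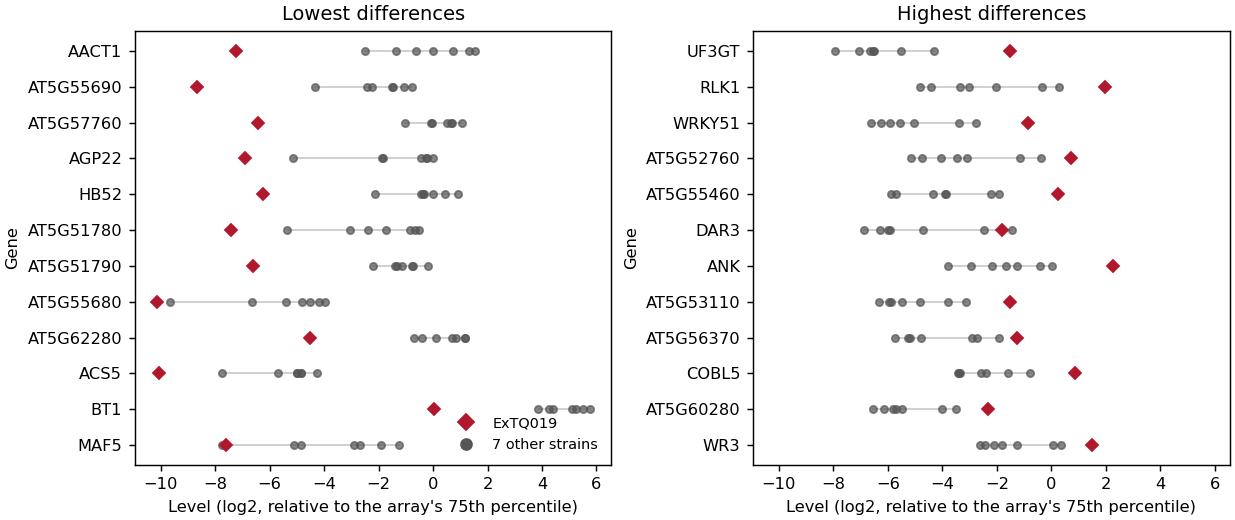
Levels in every strain of the 12 distal chromosome 5 genes with the lowest differences and the 12 with the highest, as log2 intensity relative to the 75th percentile of each array. Red diamonds are ExTQ019 and grey circles the other 7 strains, joined by a line from lowest to highest. ExTQ019 overlaps the others for DAR3 and for MAF5, which was not above background in ExTQ005. For AT5G55680 and ACS5 neither ExTQ019 nor ExTQ002 was above background, so their order there has no meaning.

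The genes far from a halving were also the ones that varied between the other strains. The median SD over the 7 others was 0.18 for genes near a halving, 0.62 for those at −2 or less, 0.45 for those at or above the others and 1.03 for the 64 genes at 1 or more. Measured from each gene's median in the 7 others, those 64 genes had a median of 1.21 in ExTQ002 and 0.91 in ExTQ013, against −0.33 in ExTQ003. The 133 genes at −2 or less had a median of −0.55 in ExTQ002 and −0.20 in ExTQ013. In both classes the median of ExTQ002 lay on the same side as ExTQ019.

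Few genes with steady levels kept the level of the other strains. AT5G56240 stood at 1.83 in ExTQ019 against 1.03, 1.20 and 1.28 in the others, a difference of 0.66. AT5G62130 differed by 0.47 and AT5G55620 by 0.44. In these 3 genes ExTQ019 was above all others, and in the next 5 it lay within their range. SNAP33, a SNARE protein of secretion and cell division, differed by 0.28 (2.68 against 2.34, 2.43 and 2.73). PIMT2, a methyltransferase that repairs damaged proteins, differed by 0.12, emb1692 by 0.17, AT5G60730 by 0.16 and AT5G61910 by 0.09.

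The 6 steady genes with the lowest differences lay well below a halving. MBD7, a methyl-CpG-binding domain protein, stood at −2.69 in ExTQ019 against −0.15, −0.05 and 0.14, a difference of −2.61. HA11, a plasma membrane proton pump, differed by −2.31, with levels of 0.29, 0.34 and 0.47 in the others. TPR14, a tetratricopeptide repeat protein, differed by −2.26, NAP1;3, a nucleosome assembly protein, by −1.94, RMR1, a sorting receptor of the vacuolar pathway, by −1.90 and AT5G66530 by −1.77. Each of these 6 genes was below all 7 others, which follows from picking steady genes with the lowest differences.

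Members of 11 functional lists were compared with the listed genes outside the lowered stretches of ExTQ019. These lists were chosen with earlier results of these data known, so the comparisons are a description. The lists held 111 members, of which 106 were measured. Of these, 44 lay near a halving, 23 at or above the others and 18 at −2 or less. Over all measured members the shares of these classes were 56.0%, 11.9% and 8.98%. Among the 181 tested listed genes outside the lowered stretches, limma calls were about as frequent as among all genes tested. Of all genes tested, 4.4% were called higher and 6.3% lower. Of the listed genes in the lowered stretches of chromosomes 2 and 3, only PSAH1 and RAD54 were called. Both lie on chromosome 3 and were lower, with differences of −1.14 and −1.15.

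The DNA repair and chromatin genes stayed close to a halving. All 13 measured members lay near a halving, from −1.35 to −0.50 with a median of −0.84, against 0.02 for 22 listed genes elsewhere. FAS2, of chromatin assembly factor 1, stood at −3.30 in ExTQ019 against −2.33, −1.92 and −1.71 in the others. XRCC2, of homologous recombination, stood at −4.10 against −2.93, −2.74 and −2.53. In both genes ExTQ019 lay below all others. MRE11, which senses and trims broken ends, differed by −0.63 and LIG4, the ligase that joins broken ends, by −0.50. CHR1, the chromatin remodeller known as DDM1, differed by −0.86, HDA6, a histone deacetylase, by −0.83, and MSI1, a histone-binding subunit, by −0.58.

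Most cell wall and tubulin genes were lower than a halving. Their 11 measured members ran from −3.33 to −1.08 with a median of −1.98. Of these, 2 lay near a halving and 4 at −2 or less. The listed genes elsewhere were low too, and the median inside minus the median elsewhere was −1.12. The 18 listed genes elsewhere had a median of −0.86, and limma called 4 of them lower (CESA2, TUB4, TUB5 and TUA3) and 0 higher. XTH25, which encodes a xyloglucan-modifying enzyme, stood at −2.22 in ExTQ019 against 0.36, 1.14 and 1.68. CESA6, a cellulose synthase of the primary wall, stood at −0.16 against 1.38, 1.86 and 2.07, a difference of −1.98. GH9A1, the endoglucanase KORRIGAN of cellulose synthesis, stood at 1.09 against 2.82, 2.88 and 3.08. In each of these 3 genes ExTQ019 was below all others. FLA12, a fasciclin-like arabinogalactan protein of secondary walls, differed by −2.41 but overlapped, at −0.55 against −1.70, 1.90 and 3.36. TUB2 and TUB3, β-tubulin genes of nearly identical sequence whose probes may share signal, differed by −1.08 and −1.36.

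Growth and patterning genes also included several below a halving. Of 14 measured members, 8 lay near a halving, 5 at −2 or less and 1 at or above the others, with a median of −1.16 against 0.06 for 15 listed genes elsewhere. HB5, a homeodomain-leucine zipper gene, stood at −0.64 in ExTQ019 against 1.72, 1.82 and 2.16. THE1, the receptor kinase THESEUS1 that monitors the cell wall, stood at −0.77 against a median of 1.58, a difference of −2.32. SPCH, which starts the stomatal lineage, stood at −6.27 against −4.95, −4.10 and −3.90. These 3 lay below all others in ExTQ019. ARF2 and IAA9, of auxin signalling, stood near a halving at −1.05 and −1.07. TRY, an inhibitor of leaf hair formation, differed by −2.06 and overlapped, with another strain at −7.49 and ExTQ019 at −4.61.

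In the defence list as many measured members lay at or above the others as below them. Of 14 measured members, 7 lay at or above the others, 5 near a halving and 1, AACT1, at −2 or less, with a median of −0.18. The 14 measured listed genes elsewhere had a median of 4.36 and ran from 2.63 to 7.51. As the list was chosen with earlier results of these data known, this contrast is a description only. Among those outside, EDS1, a hub of immune signalling, was higher by 2.55 ± 0.30 (SE, limma, 1 strain against 7). RHL41, also known as ZAT12, a zinc finger protein of stress responses, stood at 2.27 in ExTQ019 against −1.24, −0.88 and 0.72, a difference of 3.18. BON1, a copine that restrains immune responses, stood at 0.71 against 0.55, 0.74 and 1.16, within the others. CNGC4, a cyclic nucleotide-gated channel, differed by −1.32 and WRKY2 by −1.35, both below all others. PROPEP1 and PROPEP3, precursors of immune peptides, differed by −0.69 and 0.83.

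Heat shock genes were divided. HSP90.1, the heat-inducible cytosolic HSP90, stood at 2.94 in ExTQ019 against 0.46, 0.84 and 2.08, a difference of 2.13. HSP18.2, a small heat shock protein, stood at −4.10 against −1.88, −1.70 and −1.28, a difference of −2.36. Both lay outside the others, in opposite directions. The neighbouring HSP90 genes HSP81-2, HSP81-3 and Hsp81.4, whose near-identical sequences may share signal between probes, differed by 0.22, −0.06 and −0.45. The 7 measured members had a median of −0.06, against 1.25 for 7 listed genes elsewhere, where limma called 3 of 11 tested genes higher (HSP101, HSFA2 and HSP90.7).

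Among abscisic acid, drought and cold genes the members ran from −4.22 to 1.31. LTI78, better known as RD29A, a marker of drought and cold, stood at −1.77 in ExTQ019 against 0.82, 2.48 and 3.23, below all others. Its neighbour LTI65, known as RD29B, stood at −2.45 against −5.71, −3.73 and −1.52, within the others. RCAR3, the abscisic acid receptor PYL8, differed by −1.71, and HAI1, a protein phosphatase of the same pathway, by −2.09. ABA1, of abscisic acid synthesis, differed by −0.33 and ABI2, another phosphatase, by −0.95. Of 13 measured members, 2 lay near a halving, 4 at −2 or less and 4 at or above the others. Their median was −0.54, against −0.30 for 17 measured listed genes elsewhere.

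Clock and flowering genes gave a median of −0.99 over 14 measured members, against −0.29 for 15 elsewhere. TOC1, an evening component of the clock, stood at −0.72 in ExTQ019 against 0.81, 1.39 and 1.71, and PRR3, its relative, at −0.34 against 0.68, 1.25 and 1.74. Both lay below all others. RUP1, a repressor of the ultraviolet B response, differed by −3.94, COL5, of the CONSTANS-like family, by −1.22 and ZTL, which directs TOC1 breakdown, by −0.90. Outside the lowered stretches, limma put the morning gene LHY higher by 1.80 ± 0.27 (SE). The evening genes LUX and ELF4 were lower there, at −1.77 ± 0.21 and −1.43 ± 0.26. Other clock genes there differed less, among them PRR7 by −0.57, PRR5 by −0.77, GI by −0.19 and ELF3 by −0.28. In the lowered stretch of chromosome 2, CCA1 differed by −0.97 and PRR9 by −0.71. Within the group of floral repressors, AGL31 (MAF2) differed by −1.08, MAF3 by −1.14 and MAF4 by 0.14. PIF7, a phytochrome-interacting factor, stood at −0.92 against −1.27, −1.13 and −0.65, within the others.

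Of the smaller lists, the 4 phosphate genes had a median of −0.80, while the 12 listed genes elsewhere had one of −3.31. Those 12 also varied between the other strains, with an SD over the 7 others from 0.56 for PHO1;H1 to 3.58 for SPX3. SPX3 stood at −7.05 in ExTQ019 and ran from −5.82 to 2.61 in the others. PAP28, a purple acid phosphatase, differed by −1.05, PAP27 by 0.11 and SIZ1, a SUMO ligase of the phosphate response, by −0.55. The 4 glucosinolate genes had a median of −0.49, from CYP81F2, an indole glucosinolate enzyme, at −1.69 to GTR2, a transporter, at 0.23, while its relative GTR1, outside the lowered stretches, was called higher by 2.11 ± 0.27 (SE) by limma. The 8 measured nitrate and iron genes had a median of −0.45. WR3 stood at 3.32 among them, the ferric reductases FRO6 and FRO7 at −1.35 and −1.09, and the iron-regulated ORG1 at −1.65. Outside, NIA1 and NIA2, which encode nitrate reductase, were called lower at −2.71 ± 0.45 and −1.44 ± 0.19.

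**Figure D5:**
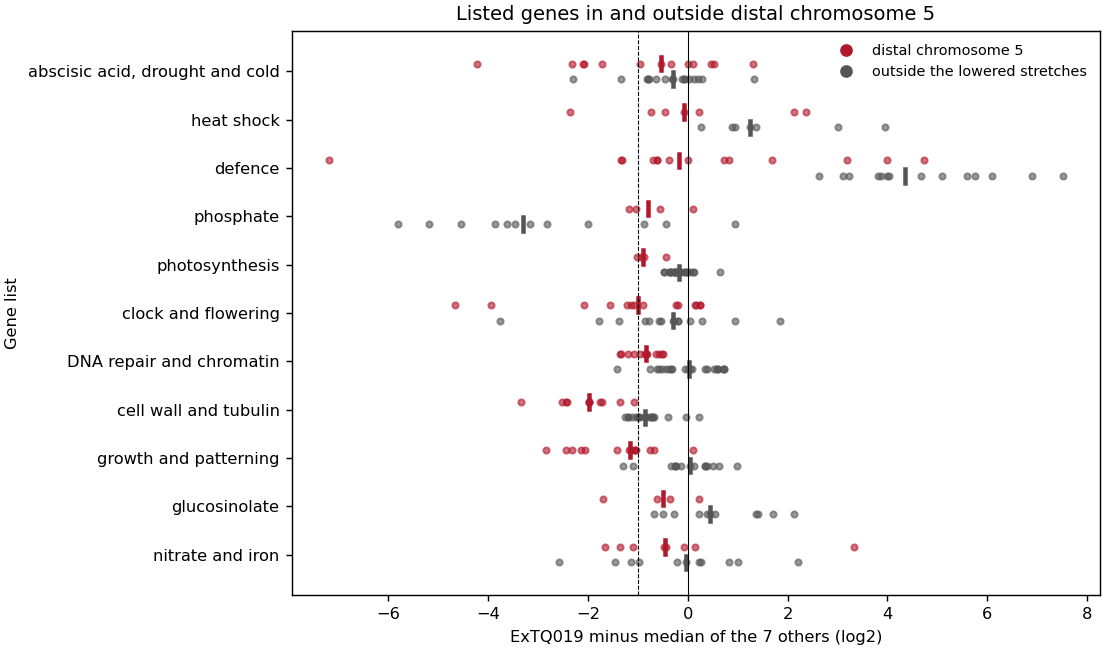
Differences in ExTQ019 for measured genes of 11 functional lists, split into members on distal chromosome 5 (red) and listed genes outside the lowered stretches (grey). Points are genes, short vertical bars are medians and the dashed line marks a halving; the DNA repair and chromatin members sit between −1.35 and −0.50, and the defence genes elsewhere between 2.63 and 7.51.

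Of the 1839 members with a usable probe, 11 (0.598%) were above background in ExTQ019 and in at most 1 other strain, against 1.37% of all loci and 1.57% of those of chromosomes 1 and 4. These loci were picked for their signal in ExTQ019, so their differences are a description. AT5G52730 was above background in none of the others and at least 9.21-fold higher in ExTQ019, and AT5G66890 and AT5G54620 were at least 2.52-fold and 1.37-fold higher. AT5G55450 was above background in 1 other strain and stood at −5.04 in ExTQ019 against −9.43, −8.91 and −6.34.

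In the contrasts that did not set the interval, the members were rarely called. ExTQ019, with its low members, was among the 7 reference strains in each of them, which adds to the spread behind these calls. In ExTQ016, limma called 16 of the 1658 tested members higher (0.965%), against 1.38% of all genes tested, and 0 lower, against 0.00447%. ENODL10, an early nodulin-like protein, was above background in all strains and stood at 0.06 in ExTQ016 against −7.21 to −5.31 in the rest (6.47 ± 0.76 SE, limma adjusted p = 0.00525, 1 strain against 7). ATPXG2, a peroxygenase of lipid bodies, was at least 56.8-fold higher (adjusted p = 0.00177), HSD6, a hydroxysteroid dehydrogenase of the kind found on oil bodies, at least 9.32-fold (adjusted p = 0.000343) and AT5G51490 at least 24.2-fold (adjusted p = 0.000571). RGP4, of the reversibly glycosylated proteins, stood at −0.03 in ExTQ016 and at −6.40 in the highest of the rest, of which 3 were above background, so that no exact difference is given (limma adjusted p = 0.0318).

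Seed marker RNA was high in ExTQ016, and its part in the calls was not tested. The 4 seed markers were above background there, with a summed level of 6.01. The seed storage gene SESA3 stood at 5.13 there and was above background in no other strain, and CRU3, another storage protein, stood at 4.70. With normexp background correction, or when only genes above background on all 8 arrays were tested, 0 members were called higher in ExTQ016, and without ExTQ018 the number was 28 (1.69%, against 1.60% of all genes tested).

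In ExTQ002 AT5G56920 alone was called, at least 4.80-fold higher (adjusted p = 0.029), against 0.0313% of all genes called higher and 0.0536% lower. It was not called with normexp correction, with the deposited series values, when only genes above background on all arrays were tested, or without ExTQ015, ExTQ003, ExTQ005, ExTQ016 or ExTQ018. Without ExTQ013, 3 members were called higher in ExTQ002 (0.181%, against 0.335% of all genes tested) and 9 lower (0.543%, against 1.22%). In ExTQ013, ExTQ015, ExTQ003, ExTQ005 and ExTQ018 limma called 0 members in either direction, while at an unadjusted p under 0.05 the counts were 5, 5, 4, 4 and 2 lower and 11, 5, 10, 3 and 18 higher. Among all genes tested the shares at that p were 0.59%, 0.822%, 1.13%, 0.29% and 0.331% lower and 0.398%, 0.331%, 0.599%, 0.264% and 1.34% higher, and among the members 0.302%, 0.302%, 0.241%, 0.241% and 0.121% lower and 0.663%, 0.302%, 0.603%, 0.181% and 1.09% higher. Of all genes tested, 0.00447% were called lower and 0.0491% higher in ExTQ015, 0% and 0.00447% in ExTQ005, and 0% in either direction in the other 3. With normexp correction 350 members were called higher in ExTQ003 (21.1%), and 5381 of all genes tested (24.0%), so the counts of that strain depend on the background correction over the whole array.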

How the data were processed

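Leaf RNA of 8 strains was measured on Agilent 4x44K 1-colour arrays, 1 per strain, so the number of arrays limits the precision. Strain names follow the titles, because the descriptions number the strains otherwise; the molecule label names genomic DNA although the protocol labels total RNA. Per the file headers, Agilent Feature Extraction 11.0.1.1 gave the deposited intensity values, background subtracted and detrended within arrays. The series values that the authors deposited were read as log2 from their range.

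Processed intensities were put on the log2 scale, flagged spots left out, spots of a probe averaged and arrays scaled by the 75th percentile. Of 37478 probes, 34 were left out. The brightest probe stood for a locus. Tests covered the 22381 genes detected above background on 1 array or more. limma 3.58.1 (R 4.3.3) set each strain against the remaining 7, assuming that the lone strain has their variance. Calls needed a Benjamini-Hochberg adjusted p below 0.05 with a difference of 1 or more in log2. The p-values measure the spread between strains. The scripts were tested on simulated data. Other steps used Python 3.11.15, numpy 2.4.6 and pandas 2.3.3.

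The members and the 11 lists were chosen with earlier results of these data known. Named are the 12 lowest and 12 highest differences, the 8 highest and 6 lowest among steady genes, the 6 brightest, the 5 loci on each side of the border, up to 5 members called per other strain, list members, and loci detected in ExTQ019 and at most 1 other. Alternatives were normexp (median spot and background signals, offset 50), quantile normalization, the series values, stricter detection, slide as a block or 1 slide only, other centring and probe rules, and leaving out each strain. Symbols come from the RefSeq table of TAIR10.1, where 14 member loci were not found. No source used here gives the build of the probe annotation, and no coordinates are printed. Promoter motifs were not analysed here.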

Additional observations from a re-analysis of the deposited data

Results flagged for a closer look

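Among the 8 strains, ExTQ019 stood apart in the median difference over the distal chromosome 5 genes, at −0.87 against 0.01 to 0.05 in the others; the interval was chosen for this value. Of 49 named genes examined over the 7 strains other than ExTQ019, 3 had 1 strain far from the rest, and chance marks about 1 in 20 groups in this way. AGP22 stood at −5.14 in ExTQ002 against −1.89 to 0.02 in the remaining 6. ACS5 stood at −7.73 in ExTQ002, where it was not above background, against −5.71 to −4.27. LHCB3 stood at 5.98 in ExTQ013 against 6.38 to 6.52.

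The arrays also hold probes named by an interval of chromosome 5 and not by a locus, which entered no comparison. The 109 of them labelled at 20 Mb or beyond and detected in at least 6 of the 7 others had a median difference of −0.85 in ExTQ019, with quartiles of −1.37 and −0.57, against medians of 0.01 to 0.07 in the other strains. The 238 labelled before 20 Mb had a median of −0.09 in ExTQ019. No source used here gives the build of these positions.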

How the results depend on the processing

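No paired analysis was possible because all 8 samples form 1 group. For the distal chromosome 5 genes of ExTQ019, the median of −0.87 became −0.76 with normexp correction, −0.75 with the deposited series values and −0.94 when centred on chromosomes 1 and 4, and ranged from −0.87 to −0.86 when each other strain was left out. The number at −2 or less, 133, became 68 with normexp and 61 with the series values. The shift against chromosomes 1 and 4 over percentiles ran from −1.03 to −0.94, from −1.05 to −0.79 with normexp, from −0.90 to −0.76 with the series values and from −1.23 to −0.93 on the same slide; it was added after the data were seen. The cause of these moves was not tested.

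Of 16 members called higher in ExTQ016, 0 were called with normexp and 0 with detection on all arrays, 4 with the series values; the count ranged from 13 to 28 with a strain left out. Quantile normalization called 1 member lower there, and leaving out a strain 0 to 2. In ExTQ002, 1 called higher became 0 with normexp, the series values and detection on all arrays and 2 with quantile normalization, and ranged from 0 to 3 (lower, 0 to 9). In ExTQ018, 0 higher ranged from 0 to 1. In ExTQ003, 350 were called higher with normexp. Calls of members in ExTQ019 became 265 lower and 2 higher with normexp, 745 lower with no minimum size and 26 higher with slide as a block, and ranged from 415 to 543 lower and 12 to 30 higher. Listed genes outside, 10 higher and 16 lower with those of the other lowered stretches, became 7 lower with normexp, 25 lower with no minimum size and 17 higher with the series values, and ranged from 8 to 18 higher, the highest without ExTQ002, and 14 to 16 lower. AT5G61100 changed sign with normexp, to −0.0097. Over the named and listed members, 2097 alternative values stayed within the spread of the other strains and 107 moved beyond it, 45 of these with the series values and 34 with normexp. Differences of dim probes are limited by signal over background.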
